A study of Mus musculus with 21 samples.

Results

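Skeletal muscle transcripts were abundant in 5 of 21 tumours, and these 5 were set against the other 16 gene by gene. The 5 were chosen by the signal of 1 gene. A tumour counted as muscle-rich where the fast muscle myosin light chain gene Myl1 had a signal above 10 log2, and as other where Myl1 was at 10 log2 or below. The muscle-rich tumours were placebo 1, placebo 5, lenvatinib 4, anti-PD1 2 and combination 2. They made up 1 of 5 tumours in the combination arm, 1 of 5 in the anti-PD1 arm, 1 of 5 in the lenvatinib arm and 2 of 6 in the placebo arm. All tumours came from Hepa1-6 cells, a mouse hepatoma line, grown subcutaneously in C57BL/6J females aged 5 to 6 weeks. Mice were randomised when tumours reached 200 mm3. The combination arm received both agents below. The anti-PD1 arm received antibody clone J43 against the T cell receptor PD-1, at 10 mg/kg into the abdomen every 3 days for 5 doses. The lenvatinib arm received this inhibitor of VEGF and FGF receptors by mouth, at 10 mg/kg daily, and the placebo arm received drug vehicle with a polyclonal IgG. Tumours were collected on day 13, when the final lenvatinib dose lay 2 h and the final antibody dose 1 day back. RNA came from 30 mg of tissue, and each tumour from its own mouse was run on 1 Clariom S array. The groups come from a measured signal and not from a treatment, so the comparison asks which nerve, vessel, metabolic and immune genes went with muscle RNA, with the treatment arm as a covariate.

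Skeletal muscle fibres contract when calcium leaves the sarcoplasmic reticulum, and relax when a calcium pump returns it. Fast fibres draw on phosphocreatine and on glycogen broken down by muscle forms of the glycolytic enzymes, while slow fibres rely more on fat oxidation in mitochondria and on oxygen bound to myoglobin. A muscle also holds motor nerve endings, Schwann cells, a dense bed of capillaries, fibroblasts, satellite cells and often fat. A thin sheet of striated muscle lies beneath mouse skin.

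The label was checked on 3 markers, given here as log2 signals in the order placebo 1, placebo 5, lenvatinib 4, anti-PD1 2 and combination 2. Myl1 stood at 11.43, 11.63, 11.36, 10.76 and 12.07 in the muscle-rich tumours, and at 5.48 (lowest), 6.25 (median) and 9.04 (highest) in the other tumours. The muscle-rich tumour nearest the threshold was anti-PD1 2 at 10.76, and the other tumours nearest to it were lenvatinib 2 at 9.04 and placebo 3 at 8.91. Acta1, the skeletal muscle actin, stood at 9.58, 9.44, 9.94, 9.24 and 10.57 in the muscle-rich tumours, and at 4.00, 4.84 and 6.78 in the other tumours (lowest, median and highest here and below). Ckm, the muscle creatine kinase, stood at 8.52, 8.04, 8.17, 7.12 and 9.13 in the muscle-rich tumours, and at 3.92, 4.52 and 6.20 in the other tumours. Neither Acta1 nor Ckm took part in the rule, and on each of them all 5 muscle-rich tumours lay above all 16 other tumours. Lenvatinib 2 had the highest Acta1 and Ckm signals among the other tumours.

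**Figure D1:**
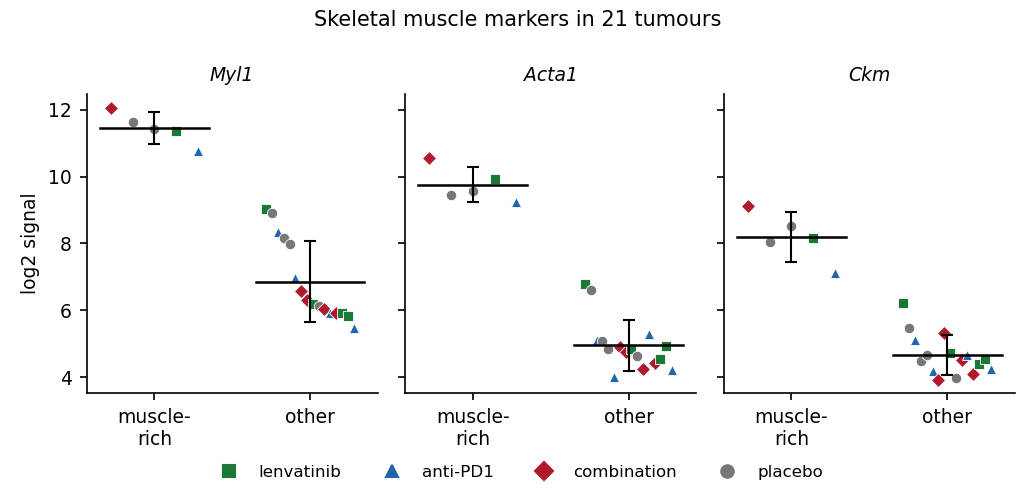
Log2 signal (y axis) of Myl1, Acta1 and Ckm in each of 21 tumours, for the 5 muscle-rich and the 16 other tumours; symbols give the treatment arm and bars the mean ± SD of a group. Myl1 of the muscle-rich tumours runs from 10.76 to 12.07, and Acta1 and Ckm separate the same tumours without overlap.

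The muscle-rich tumours differed from the other tumours in more than muscle RNA. Afp, the alpha-fetoprotein gene and a hepatoma marker, stood at 5.60, 11.39, 11.76, 3.75 and 9.82 in the muscle-rich tumours, and at 5.05, 11.22 and 11.94 in the other tumours. Adipoq, an adipocyte hormone gene, stood at 11.32, 7.86, 8.67, 11.98 and 9.29 in the muscle-rich tumours, and at 4.01, 7.96 and 11.49 in the other tumours. Placebo 1 and anti-PD1 2 thus combined muscle RNA with high adipocyte and low hepatoma signals, whereas placebo 5 and lenvatinib 4 had Afp signals near the highest of the series. Ucp1, the uncoupling protein of brown fat, was at 11.36 in placebo 1 and between 2.95 and 3.60 in the remaining muscle-rich tumours, against 2.79, 3.25 and 4.05 in the other tumours. Hybridization controls read 10.34 to 10.65 in the muscle-rich arrays and 10.40 to 11.74 in the other arrays, where 6 arrays exceeded 11. Fits with the adipocyte score or the hybridization control as a covariate, without the 6 bright arrays and without the 3 tumours with Afp below 6 are given beside some of the results they change. In bulk RNA, fewer cells of a type and less RNA per cell cannot be told apart.

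Across 22206 probe sets, 197 rose in the muscle-rich tumours, 0.887% of those tested, and 0 fell, 0% of those tested, at a Benjamini-Hochberg adjusted p under 0.05 in the limma fit. Without the 3 tumours with Afp below 6, 159 rose, and without the 6 bright arrays 244. Without adjustment, 1026 lay above 0 (4.62%) and 585 below 0 (2.63%) with a p under 0.05. The smallest adjusted p on the lower side was 0.0942, for Abracl at -0.59 log2. All differences are log2 signals of muscle-rich minus other tumours, adjusted for the arm, ± their standard error. Of the 197, 35 belong to the lists of contractile genes, which follow from the Myl1 rule and are described without a test, and 162 do not. The difference within each arm was above 0 in all 4 arms for 159 of these 162, and the 2 groups did not overlap for 88, where 0.545% of all probe sets were so separated on the higher side and 0.00901% on the lower. The 162 were picked by a fit to the same tumours, so neither count is separate support. They still hold contractile genes outside the lists, such as Myh8 and Tpm1. The difference was 2-fold or more for 171 of the 197 and 4-fold or more for 90. For 54 of the 197 the mean of the other tumours lay below 4.08, the median of the negative control probes, and the size of those differences depends on the background.

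Fast fibre contractile genes were high in all 5 muscle-rich tumours, while slow fibre genes were highest in combination 2 and less even among the rest. Of 40 measured fast and shared contractile genes, 30 had no overlap between the groups, where 0.545% of all probe sets were so separated on the higher side. These genes go with the Myl1 rule, so the count is a description and not separate support. The median difference over the list was 3.44. Actn3, the fast fibre alpha-actinin, stood at 11.12, 11.17, 11.83, 10.00 and 11.95 in the muscle-rich tumours, and at 5.17, 5.42 and 7.57 in the other tumours. Myh4, a fast myosin heavy chain, stood at 11.85, 11.78, 11.94, 11.10 and 11.63 in the muscle-rich tumours, and at 3.02, 3.55 and 10.07 in the other tumours, with the highest of these in placebo 3. The perinatal myosin heavy chain gene Myh8 had signals from 11.75 to 12.51 in the muscle-rich tumours and 3.11, 3.56 and 10.44 in the other tumours, but the array file does not show how well its probes separate it from neighbouring myosin genes. The 10 slow contractile genes had a median difference of 0.87, and their score was 2.62 in combination 2, 0.66 in anti-PD1 2, 0.33 in placebo 5, 0.09 in placebo 1 and -0.13 in lenvatinib 4, against at most 0.03 in the other tumours. Csrp3, a LIM protein of striated muscle on that list, stood at 7.38, 7.26, 4.98, 7.68 and 9.03 in the muscle-rich tumours, and at 3.61, 4.19 and 5.45 in the other tumours. Myl3, a slow and cardiac myosin light chain, was at 10.55 in combination 2, 7.28 in anti-PD1 2 and 6.38 in lenvatinib 4, against a highest value of 5.89 in the other tumours. Myl2, another such light chain, was at 8.83 in combination 2, at 5.07 in anti-PD1 2 and between 2.95 and 3.09 in the remaining muscle-rich tumours, against 2.97, 3.16 and 3.85 in the other tumours. Tnni1, the slow troponin I, was at 7.49 in combination 2 and between 3.07 and 4.53 in the remaining muscle-rich tumours, against 2.89, 3.45 and 4.22 in the other tumours. Among the non-contractile results, combination 2 also had the highest signals for many muscle genes, as the values below show.

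Among genes that move calcium and excite the fibre, 15 of 23 measured members rose, 0 fell and 8 did not pass. The median difference over the list was 1.05. Over all probe sets 0.887% rose and 0% fell, the background for this count and for those of the lists below. Atp2a1, the calcium pump of the fast sarcoplasmic reticulum, stood at 12.78, 12.85, 12.93, 12.19 and 12.92 in the muscle-rich tumours, and at 3.73, 4.96 and 10.72 in the other tumours. It rose by 7.15 ± 0.76 (limma adjusted p = 3.39e-06), and the groups did not overlap; placebo 3, at 10.72, was the nearest other tumour. Casq1, the calcium store protein of the fast reticulum, stood at 9.33, 9.66, 9.60, 8.65 and 10.30 in the muscle-rich tumours, and at 3.61, 4.03 and 7.10 in the other tumours. Its rise was 5.23 ± 0.37 (limma adjusted p = 1.60e-08), again without overlap. Pvalb, the parvalbumin that buffers calcium in fast fibres, averaged 10.42 ± 0.62 in the muscle-rich tumours (SD, n = 5) and 5.31 ± 1.09 in the other tumours (SD, n = 16). The release channel Ryr1 rose by 2.40 ± 0.21, and the voltage sensor subunits Cacna1s and Cacnb1 by 2.37 ± 0.27 and 2.01 ± 0.18. Hrc and Trdn, which regulate and anchor the release complex, rose by 4.47 ± 0.32 and 4.11 ± 0.33. Jph2, which holds the tubule and reticulum membranes together, and the chloride channel Clcn1 rose less, by 0.97 ± 0.15 and 0.85 ± 0.14. Clcn1 lost its call without the 3 tumours with Afp below 6, at 0.78 (limma adjusted p = 0.0900).

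Phosphocreatine and adenine nucleotides buffer the energy of the fibre. Of 11 phosphagen and purine nucleotide cycle genes, 5 rose and 0 fell, and the 5 were Ampd1, Ckm, Ckmt2, Adssl1 and Ak1. Ampd1, the muscle AMP deaminase, stood at 7.51, 7.51, 7.54, 6.44 and 8.21 in the muscle-rich tumours, and at 3.03, 3.38 and 5.01 in the other tumours. It rose by 3.81 ± 0.29 (limma adjusted p = 3.36e-08), with no overlap between the groups. Ckmt2, the creatine kinase of muscle mitochondria, rose by 2.24 ± 0.24, Adssl1, the muscle adenylosuccinate synthase, by 2.34 ± 0.26, and Ak1, an adenylate kinase, by 2.55 ± 0.36. The creatine transporter gene Slc6a8 did not pass, at 0.34 ± 0.24.

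Glycogen and muscle glycolysis had a median difference of 1.21 over 19 measured genes, of which 10 rose and 0 fell. Pygm, the muscle glycogen phosphorylase, stood at 10.88, 10.76, 10.89, 9.77 and 11.39 in the muscle-rich tumours, and at 4.46, 5.01 and 7.89 in the other tumours. It rose by 5.40 ± 0.40 (limma adjusted p = 2.44e-08) and did not overlap. Ppp1r3a, which brings a phosphatase to glycogen in muscle, stood at 7.17, 6.48, 6.79, 6.01 and 8.52 in the muscle-rich tumours, and at 2.80, 3.20 and 3.64 in the other tumours. With a rise of 3.78 ± 0.23 it had the smallest adjusted p of any gene outside the contractile lists (4.91e-09, limma), and the groups did not overlap. Pgam2, the muscle phosphoglycerate mutase, stood at 8.82, 8.63, 8.65, 7.55 and 9.76 in the muscle-rich tumours, and at 3.88, 4.59 and 5.85 in the other tumours, a rise of 4.00 ± 0.29 (limma adjusted p = 1.83e-08). The remaining 7 that rose were Phka1, Pfkm, Eno3, Fbp2, Pgm1, Gys1 and Aldoa, by 0.99 to 2.44. Gys1, the muscle glycogen synthase, did not pass with Myl1 above 9 (limma adjusted p = 0.111), above 11 (0.0546) or as a continuous term (0.127). It also did not pass without the 3 tumours with Afp below 6, at 0.85 (limma adjusted p = 0.0612). Aldoa, the muscle aldolase that many tissues also use, overlapped between the groups, with 11.18 to 11.95 in the muscle-rich tumours and 9.50, 10.60 and 11.19 in the other tumours. Its rise of 0.99 was 0.97 without placebo 1 (limma adjusted p = 0.0665), 0.95 without placebo 5 (0.0583) and 0.88 without combination 2 (0.173). With the hybridization control as a covariate it was 0.83 (limma adjusted p = 0.0767), and with Myl1 as a continuous term 0.78 (0.180). Slc2a4, the insulin-responsive glucose transporter of muscle and fat, did not pass at 1.11 ± 0.34 and was highest in placebo 1 and anti-PD1 2, at 8.12 and 8.06. Without placebo 5 it passed, at 1.43 (limma adjusted p = 0.0299). It also passed with array weights (1.14, 0.0225) and with the hybridization control as a covariate (1.40, 0.0458), but not with the adipocyte score as a covariate (0.63, 0.623).

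**Figure D2:**
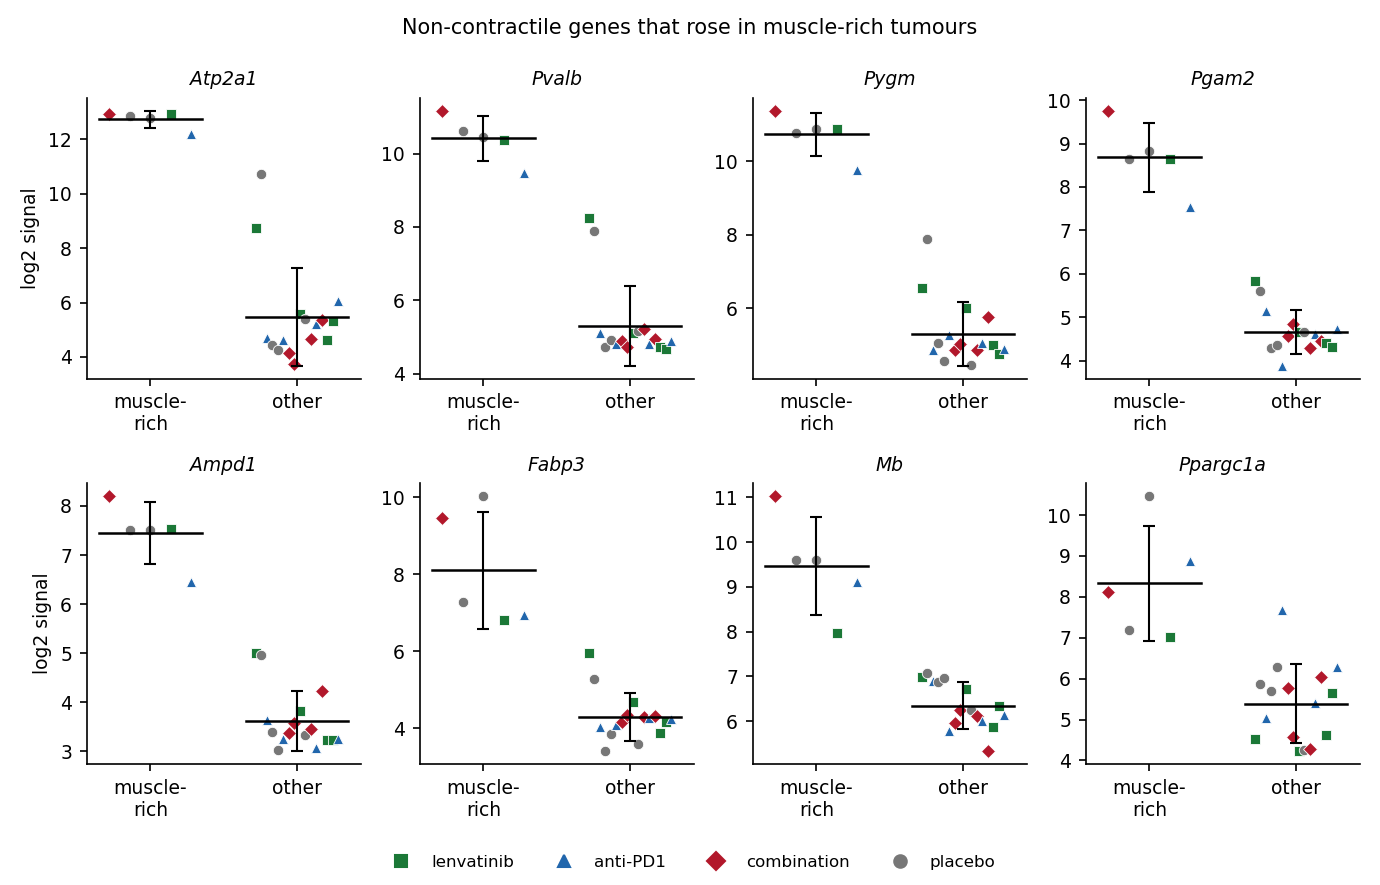
Log2 signal (y axis) of 8 non-contractile genes in the 5 muscle-rich and the 16 other tumours, with symbols for the treatment arm and bars for the mean ± SD of a group. Atp2a1, Pvalb, Pygm, Pgam2, Ampd1, Fabp3 and Mb have no overlap between the groups, while Ppargc1a overlaps and is highest in placebo 1 at 10.47.

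Promoters of these genes are shown because many carry the same short motif. Whether the motif had a part in the rise was not tested. The E-box CAGCTG is read by MyoD family factors, and the MEF2 box by MEF2 factors. Below are the 250 bases before the transcript start of the 3 glycogen and glycolysis genes with the smallest adjusted p, from RefSeq on GRCm38.p6, with matches to CAGCTG or the MEF2 box in capitals.
Ppp1r3a (chr6:14755275-14755524, minus strand): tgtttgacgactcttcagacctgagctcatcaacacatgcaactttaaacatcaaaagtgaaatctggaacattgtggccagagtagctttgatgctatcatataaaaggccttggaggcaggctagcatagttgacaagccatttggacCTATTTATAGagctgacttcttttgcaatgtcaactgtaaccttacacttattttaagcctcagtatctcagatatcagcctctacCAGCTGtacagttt
Pgam2 (chr11:5803797-5804046, minus strand): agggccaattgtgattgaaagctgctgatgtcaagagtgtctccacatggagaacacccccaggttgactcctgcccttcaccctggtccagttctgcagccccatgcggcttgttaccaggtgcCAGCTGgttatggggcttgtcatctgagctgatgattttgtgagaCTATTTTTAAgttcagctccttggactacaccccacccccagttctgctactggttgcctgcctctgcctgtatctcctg
Pygm (chr19:6384158-6384407, plus strand): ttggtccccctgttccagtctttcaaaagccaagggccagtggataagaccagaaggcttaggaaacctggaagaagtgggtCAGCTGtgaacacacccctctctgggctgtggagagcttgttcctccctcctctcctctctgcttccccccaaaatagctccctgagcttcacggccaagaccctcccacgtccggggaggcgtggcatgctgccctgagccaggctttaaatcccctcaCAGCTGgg
In Ppp1r3a, CAGCTG begins 14 bases and the MEF2 box 100 bases before the start. Pgam2 has CAGCTG at 125 and the MEF2 box at 80 bases, and Pygm has CAGCTG at 168 and at 8 bases and no match to the MEF2 box. Of the 50 genes that rose in the muscle and metabolic lists, 39 had a promoter sequence, and 21 of these (53.8%) held CAGCTG. The motif, which reads the same on both strands, stood in 9 of 94 promoters (9.57%) of the list members that did not pass and in 3979 of 27025 promoters (14.7%) of all genes. The MEF2 box, searched on both strands, stood in 7 of the 39 (17.9%), in 5 of the 94 (5.32%) and in 923 of all 27025 (3.42%). These shares describe letters in a window of 250 bases and carry no test, and binding was not measured.

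Genes of fat oxidation were uneven among the 5 muscle-rich tumours. Of 19 measured genes of fatty acid uptake and oxidation, 2 rose and 0 fell, although all 19 differences lay above 0 with a median of 0.72. The median was 0.47 without placebo 1 and 0.24 without the 3 tumours with Afp below 6. Fabp3, the fatty acid carrier of muscle and heart, stood at 10.04, 7.28, 6.82, 6.95 and 9.45 in the muscle-rich tumours, and at 3.41, 4.21 and 5.97 in the other tumours, a rise of 3.82 ± 0.44 (limma adjusted p = 1.10e-05). Cpt1b, the muscle carnitine palmitoyltransferase, stood at 8.68, 5.87, 6.36, 5.62 and 6.89 in the muscle-rich tumours, and at 3.93, 4.65 and 5.26 in the other tumours, a rise of 2.01 ± 0.33 that did not pass with Myl1 above 9 (limma adjusted p = 0.0962) or as a continuous term (0.0664). Both genes were separated without overlap, and both were highest in placebo 1, the tumour with the brown fat signal. General oxidation enzymes did not pass, such as Acadl at 0.86 ± 0.24 (limma adjusted p = 0.141) and Hadhb at 1.35 ± 0.43 (limma adjusted p = 0.306). The list score, the mean of gene-centred log2 signals, was 1.89 in placebo 1, 1.36 in anti-PD1 2 and 0.67 in combination 2, but -0.09 in placebo 5 and -0.03 in lenvatinib 4. The other tumours ranged from -0.81 to 0.42 on the same score.

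Of 19 citrate cycle genes 1 rose and 0 fell, and of 28 respiratory chain genes 3 rose and 0 fell. The citrate cycle gene was Idh3a, a subunit of isocitrate dehydrogenase, at 1.08 ± 0.24 (limma adjusted p = 0.0247). The respiratory chain genes were Cox7a1 at 2.72 ± 0.38, Cox6a2 at 1.68 ± 0.20, both muscle forms of cytochrome oxidase subunits, and Slc25a4, the muscle adenine nucleotide translocator, at 1.57 ± 0.35. Cox6a2 stood at 8.07, 8.15, 7.71, 7.31 and 9.28 in the muscle-rich tumours, and at 5.85, 6.31 and 7.15 in the other tumours, without overlap. Cox8b, found in muscle and brown fat, did not pass at 3.09 ± 1.01, and the other tumours ran from 3.73 to 10.64. It passed with Myl1 as a continuous term (3.86, limma adjusted p = 0.00547), with array weights (3.78, 0.00375) and without the 6 arrays with bright hybridization controls (4.14, 0.0158). With the adipocyte score as a covariate Cox8b did not pass, at 1.34 (limma adjusted p = 0.633). Mb, the myoglobin gene, stood at 9.60, 9.61, 7.98, 9.11 and 11.03 in the muscle-rich tumours, and at 5.33, 6.25 and 7.07 in the other tumours, a rise of 3.05 ± 0.33 (limma adjusted p = 5.13e-06). Ppargc1a, a coactivator that drives mitochondrial genes in muscle and brown fat, stood at 10.47, 7.19, 7.01, 8.88 and 8.12 in the muscle-rich tumours, and at 4.23, 5.53 and 7.68 in the other tumours. It rose by 2.89 ± 0.47 (limma adjusted p = 0.000875), and placebo 5 and lenvatinib 4 overlapped with the other tumours. Ucp3, a mitochondrial carrier of muscle, rose by 1.45 ± 0.30 (limma adjusted p = 0.0121). Idh3a, Slc25a4 and Ucp3 rest on few tumours. Idh3a was at 0.87 without placebo 1 (limma adjusted p = 0.151), 1.07 without anti-PD1 2 (limma adjusted p = 0.105) and 1.07 without combination 2 (limma adjusted p = 0.122). Slc25a4 lost its call without any of placebo 1, lenvatinib 4, anti-PD1 2 or combination 2, at adjusted p from 0.0630 to 0.211, and Ucp3 without placebo 1, lenvatinib 4 or anti-PD1 2, at 0.0670 to 0.125. Without the 3 tumours with Afp below 6, Idh3a was at 0.79, Slc25a4 at 1.59 and Ucp3 at 0.82, and none passed. Idh3a (limma adjusted p = 0.153) and Ucp3 (0.0569) also lost their calls without the 6 bright arrays. With the hybridization control as a covariate, Idh3a lost its call as well (0.110). Over all metabolic lists, 24 of 107 measured genes rose (22.4%, against 0.887% of all probe sets), and 20 did so without placebo 1. With the adipocyte score as a covariate 22 did so, Ppargc1a at 2.39 (limma adjusted p = 0.00455) and Fabp3 at 3.74 (6.33e-05) among them, while Slc25a4 at 1.09 (0.0998) and Idh3a at 1.01 (0.102) lost their calls.

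Muscle forms of enzymes were compared with the forms used elsewhere in 22 pairs, chosen after the values had been seen. Of 19 muscle forms, 17 rose, with a median difference of 2.44. Of the 22 counterparts, 0 passed in either direction, with a median of 0.18 and a range from -0.23 to 0.86. Glycogen phosphorylase gave 5.40 ± 0.40 for Pygm and 0.60 ± 0.38 for its liver form Pygl. Phosphofructokinase gave 2.44 ± 0.23 for Pfkm and 0.34 ± 0.32 for its platelet form Pfkp, and AMP deaminase 3.81 ± 0.29 for Ampd1 and -0.23 ± 0.29 for Ampd2. For the calsequestrins, the difference was 5.23 ± 0.37 for Casq1 and 0.50 ± 0.24 for the cardiac and slow form Casq2. With the hybridization control as a covariate, 2 of the counterparts given here passed, Casq2 at 0.82 (limma adjusted p = 0.0459) and Ampd2 at -0.72 (limma adjusted p = 0.0326). Muscle forms of translation proteins also rose, with Eef1a2 at 1.81 ± 0.21 and Rpl3l at 2.54 ± 0.25, beside Eef1a1 at -0.11 ± 0.10 and Rpl3 at -0.23 ± 0.13. The muscle forms that did not pass were Phkg1, a phosphorylase kinase subunit, at 1.21 ± 0.29 (limma adjusted p = 0.0530), and Cox8b. Phkg1 passed without any of placebo 4, placebo 5 or anti-PD1 1, at 1.28 to 1.38. It also passed in several other settings, such as Myl1 as a continuous term (1.36, limma adjusted p = 0.000303) and array weights (1.36, 0.000294). Further passes came with the hybridization control as a covariate (1.41, 0.0165) and without the 6 bright arrays (1.44, 0.0108). With the adipocyte score as a covariate it did not pass (0.92, 0.299).

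**Figure D3:**
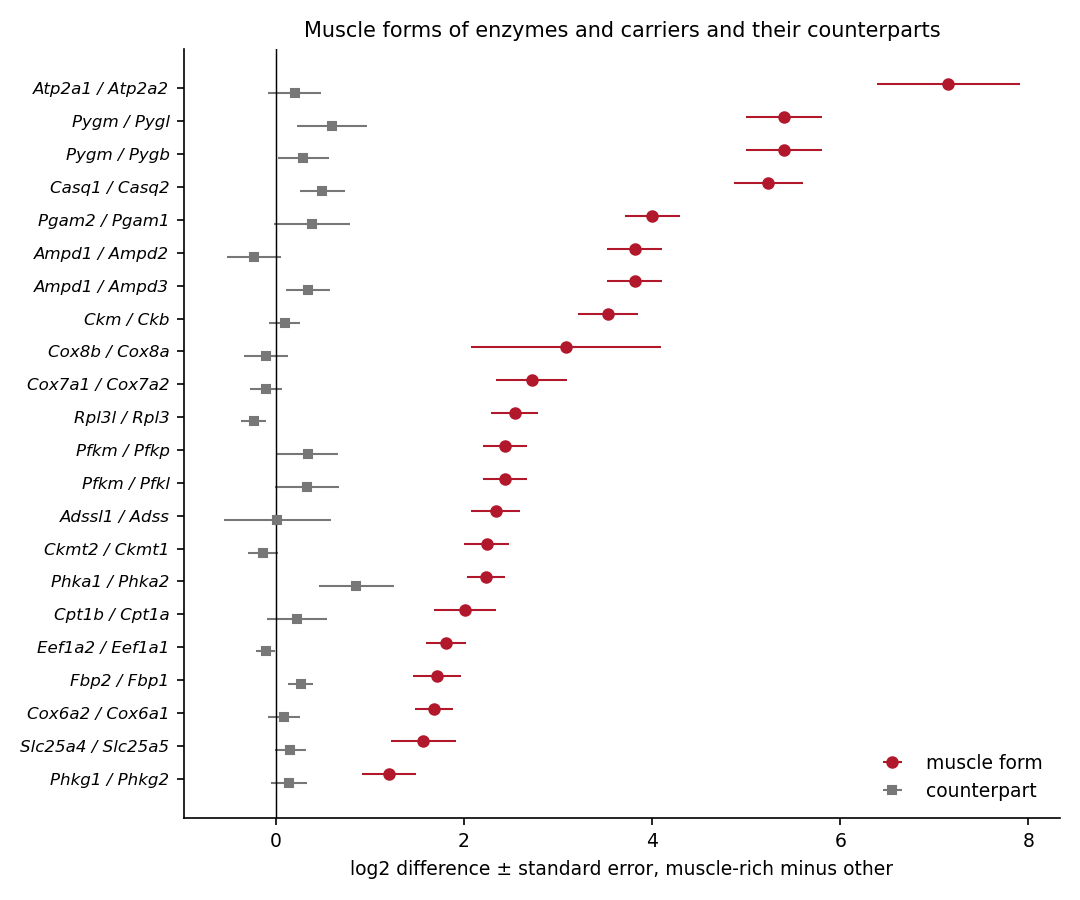
Log2 difference of muscle-rich minus other tumours (x axis) ± its standard error, for the muscle form of each enzyme and its counterpart in 22 pairs. The pairs were chosen after the values had been seen. The muscle forms run up to 7.15 for Atp2a1, and the counterparts lie between -0.23 and 0.86.

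Myogenic factors switch on the genes of the fibre. Of 20 measured myogenic and satellite cell genes, 2 rose and 0 fell. Myf6, the myogenic factor of mature fibres, stood at 5.74, 5.98, 5.74, 4.27 and 6.23 in the muscle-rich tumours, and at 3.38, 3.71 and 4.21 in the other tumours. It rose by 1.82 ± 0.21 (limma adjusted p = 8.47e-06), and anti-PD1 2 exceeded the highest other tumour by less than 0.1 log2. Eya1, a coactivator with a role in fast fibres, rose by 0.92 ± 0.18 (limma adjusted p = 0.00621). Eya1 lost its call without the 6 bright arrays (0.83, limma adjusted p = 0.0556) and without the 3 tumours with Afp below 6 (0.83, 0.235). Genes of early myogenesis did not pass: Myod1 differed by -0.05 ± 0.20 and Myog by -0.0041 ± 0.23. Myod1 averaged 3.89 ± 0.28 in the muscle-rich tumours (SD, n = 5) and 3.92 ± 0.38 in the other tumours (SD, n = 16), both below the negative control median of 4.08. Mef2c differed by 2.12 ± 0.56 (limma adjusted p = 0.113), with 7.94 to 9.30 in the muscle-rich tumours and 4.63, 6.06 and 9.81 in the other tumours, the highest of these in combination 4. Without combination 1 or combination 4, 2 tumours of the other group, Mef2c passed at 1.92 (limma adjusted p = 0.0354) and 2.27 (0.0228). It also passed with array weights (1.78, 0.0156), but not with the adipocyte score as a covariate (1.70, 0.452).

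Of 20 measured secreted and turnover factors, 9 rose and 0 fell, with a median difference of 0.98. Asb5, a ubiquitin ligase adaptor of muscle, stood at 8.38, 8.58, 7.44, 6.01 and 9.34 in the muscle-rich tumours, and at 2.92, 3.41 and 5.44 in the other tumours, a rise of 4.26 ± 0.38 (limma adjusted p = 2.89e-07). Mstn, the muscle growth inhibitor myostatin, stood at 7.97, 7.55, 5.80, 3.88 and 6.73 in the muscle-rich tumours, and at 2.75, 3.28 and 5.66 in the other tumours. It rose by 2.72 ± 0.36 (limma adjusted p = 5.69e-05), but anti-PD1 2 lay below the negative control median. The ubiquitin ligase genes Fbxo40 and Trim63 rose by 2.41 ± 0.21 and 1.35 ± 0.28, the protease Capn3 by 2.30 ± 0.22, and the membrane proteins Sgca, Sgcb and Cav3 by 1.87 ± 0.22, 1.37 ± 0.29 and 1.5 ± 0.27. Fbxo32, another ubiquitin ligase of wasting muscle, did not pass at 0.99 ± 0.29 (limma adjusted p = 0.218), but did without placebo 5, at 1.25 (0.0316). It also passed with array weights (0.97, 0.0354), but not with the adipocyte score as a covariate (0.73, 0.594). Trim63 lost its call without placebo 5 (1.25, limma adjusted p = 0.0527) or combination 2 (1.17, 0.143). Sgcb lost it without any of placebo 1, lenvatinib 4, anti-PD1 2 or combination 2, at 1.22 to 1.41 with adjusted p from 0.0540 to 0.140. Sgcb also did not pass with the hybridization control (limma adjusted p = 0.0625) or the adipocyte score (0.0832) as a covariate. The same held without the 6 bright arrays (0.128) and without the 3 tumours with Afp below 6 (0.908).

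Nerve genes did not pass the test: of 57 measured genes in 3 lists, 0 rose and 0 fell. By the unadjusted p under 0.05, 4 had higher and 2 lower signals, against 4.62% and 2.63% of all probe sets. The median difference was -0.05 for the 13 neuromuscular junction genes, 0.01 for the 24 Schwann cell and myelin genes and -0.08 for the 20 axon genes, beside -0.04 over all probe sets. Musk, the receptor kinase of the motor endplate, was the nearest to the threshold. It stood at 4.80, 4.57, 3.65, 4.18 and 4.34 in the muscle-rich tumours, and at 2.84, 3.56 and 4.20 in the other tumours, a difference of 0.69 ± 0.18 (95% interval 0.31 to 1.07, limma adjusted p = 0.106) on signals close to the negative control level. Musk passed without combination 1 (0.73, limma adjusted p = 0.0434), after cyclic loess (0.79, 0.0126), with array weights (0.62, 0.0337) and with the hybridization control as a covariate (0.85, 0.0161). It did not pass with the adipocyte score as a covariate (0.79, limma adjusted p = 0.0730). The acetylcholine receptor subunits Chrnd and Chrne differed by 0.09 ± 0.13 and 0.14 ± 0.24.

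Among Schwann cell genes, Pmp22, a myelin protein that fibroblasts also express, stood at 10.87, 9.75, 9.62, 11.44 and 10.32 in the muscle-rich tumours, and at 7.31, 9.29 and 10.49 in the other tumours. Its difference was 1.27 ± 0.43 (95% interval 0.37 to 2.17, limma adjusted p = 0.396). Mbp, myelin basic protein, stood at 5.92, 4.58, 4.84, 5.89 and 4.24 in the muscle-rich tumours, and at 3.53, 4.64 and 4.98 in the other tumours. Mbp was thus higher than in any other tumour in placebo 1 and anti-PD1 2 only, the 2 muscle-rich tumours with the high Adipoq signals. Cdh19, a Schwann cell cadherin, was at 5.94 in anti-PD1 2 and 4.25 in placebo 1, and between 2.82 and 2.99 in the other 3 muscle-rich tumours, against 2.57, 2.83 and 3.73 in the other tumours. Mag, a myelin adhesion protein, differed by -0.55 ± 0.22 (95% interval -1.01 to -0.08, limma adjusted p = 0.586).

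Vessel genes did not pass the test. Of 70 measured vessel genes outside the contractile lists, 0 rose and 0 fell, 9 were higher and 0 lower at an unadjusted p under 0.05, and the median difference was 0.29. That median was 0.12 without anti-PD1 2 and 0.010 without the 3 tumours with Afp below 6. The 16 artery and tip cell genes among them had a median of -0.0064, with 8 above and 8 below 0. Des, desmin, is on the pericyte list too and stood at 8.38 to 10.14 in the muscle-rich tumours and at 3.67, 5.40 and 7.09 in the other tumours, but as a contractile fibre gene it is only described. Ptprb, a phosphatase of endothelial cells, stood at 7.60, 4.58, 5.79, 8.45 and 5.04 in the muscle-rich tumours, and at 3.98, 4.98 and 6.95 in the other tumours, a difference of 1.24 ± 0.47 (95% interval 0.25 to 2.23, limma adjusted p = 0.516). Kdr, the VEGF receptor that lenvatinib inhibits, stood at 7.90, 5.41, 6.21, 8.91 and 5.91 in the muscle-rich tumours, and at 4.61, 6.09 and 7.85 in the other tumours. Aqp1, a water channel of capillaries, stood at 9.12, 7.07, 7.35, 9.57 and 7.97 in the muscle-rich tumours, and at 5.21, 6.85 and 8.41 in the other tumours. Aqp1 differed by 1.55 ± 0.47 (95% interval 0.58 to 2.52, limma adjusted p = 0.231), and array weights brought it past the threshold (limma adjusted p = 0.0495). With the adipocyte score as a covariate Aqp1 was at 0.78 (limma adjusted p = 0.554). The endothelial score was 1.21 in anti-PD1 2 and 0.78 in placebo 1, and lay between -0.24 and -0.0021 in the other 3 muscle-rich tumours, against -0.68 to 0.57 in the other tumours. With the adipocyte score as a covariate, the list's median difference was 0.20, against 0.48 without it.

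Adipocyte genes were higher in the muscle-rich group by value and did not pass the test. All 21 measured members had differences above 0, with a median of 1.23 (0.81 without anti-PD1 2 and 0.38 without the 3 tumours with Afp below 6), and 0 passed, while 43.5% of all probe sets had a difference above 0. At an unadjusted p under 0.05, 7 of the 21 were higher, against 4.62% of all probe sets. The adipocyte score was 2.76 in placebo 1, -0.53 in placebo 5, -0.18 in lenvatinib 4, 2.78 in anti-PD1 2 and 0.31 in combination 2, against -1.96, -0.69 and 1.65 in the other tumours. Fasn, the fatty acid synthase, stood at 11.80, 9.02, 9.46, 12.33 and 9.21 in the muscle-rich tumours, and at 6.98, 8.80 and 11.44 in the other tumours, a difference of 1.53 ± 0.58 (limma adjusted p = 0.516). Car3, a carbonic anhydrase of fat and slow muscle, differed by 2.42 ± 1.01 (95% interval 0.32 to 4.52, limma adjusted p = 0.611), and array weights brought it past the threshold, at 3.16 (limma adjusted p = 0.0472). With the adipocyte score as a covariate Car3 was at 0.51 (limma adjusted p = 0.671). Of 20 fibroblast and 9 tendon genes, 0 passed, with medians of 0.41 and -0.01, and the nearest was the fibroblast gene Pi16 at 0.89 ± 0.35 (limma adjusted p = 0.531). Of 13 epidermis and hair genes, 0 passed, with a median of -0.25.

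Immune genes did not pass either: of 118 measured genes in 7 lists, 0 rose and 0 fell. At an unadjusted p under 0.05, 1 was higher and 2 lower, against 4.62% and 2.63% of all probe sets. The median difference was -0.19, with 33 of the 118 above 0, but it was -0.010 without anti-PD1 2 and 0.052 without the 3 tumours with Afp below 6. Cd3d, part of the T cell receptor complex, stood at 8.30, 8.69, 7.62, 4.02 and 9.78 in the muscle-rich tumours, and at 7.14, 8.37 and 10.11 in the other tumours. Its difference was -0.83 ± 0.45 (95% interval -1.76 to 0.10, limma adjusted p = 0.725), and anti-PD1 2 lay at the negative control level. Tyrobp, a signalling adaptor of macrophages and NK cells, stood at 10.74, 10.04, 9.45, 7.91 and 11.43 in the muscle-rich tumours, and at 8.82, 10.47 and 11.75 in the other tumours. The T cell score was -1.89 in anti-PD1 2 and 1.06 in combination 2, and the macrophage score was -1.40 and 1.27 in the same tumours. These 2 tumours thus stood at opposite ends of the muscle-rich group. In the other tumours the T cell score ran from -0.83 to 1.62 and the macrophage score from -1.16 to 1.33. Mast cell protease Mcpt4 was the immune gene higher at an unadjusted p under 0.05, at 0.90 ± 0.42 (limma adjusted p = 0.681), with 7.04 to 7.88 in the muscle-rich tumours and 4.01, 6.63 and 7.73 in the other tumours. The interferon-induced chemokine Cxcl9 differed by -0.77 ± 0.38 (95% interval -1.56 to 0.01, limma adjusted p = 0.693).

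Tumour cell genes did not pass the test. Of 57 measured hepatoma, mitosis and hypoxia genes, 0 rose and 0 fell, with 3 higher and 3 lower at an unadjusted p under 0.05. Their median difference was -0.33, but 0.0081 without anti-PD1 2 and 0.17 without the 3 tumours with Afp below 6. Of the 15 hypoxia genes, 11 had differences above 0, with a median of 0.03. All 19 mitosis genes had differences below 0, with a median of -0.47, and the smallest p was that of Ttk, a spindle checkpoint kinase, at -0.50 ± 0.22 (limma adjusted p = 0.653). The mitosis score was -1.60 in placebo 1, 0.69 in placebo 5, 0.91 in lenvatinib 4, -1.65 in anti-PD1 2 and -0.63 in combination 2, against -1.43, 0.23 and 1.39 in the other tumours. Placebo 1 and anti-PD1 2 thus lay below all other tumours, while placebo 5 and lenvatinib 4 lay above the median of the other tumours but within their range. With the adipocyte score as a covariate the median difference of the mitosis genes was 0.23, and 0.18 without the 3 tumours with Afp below 6.

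**Figure D4:**
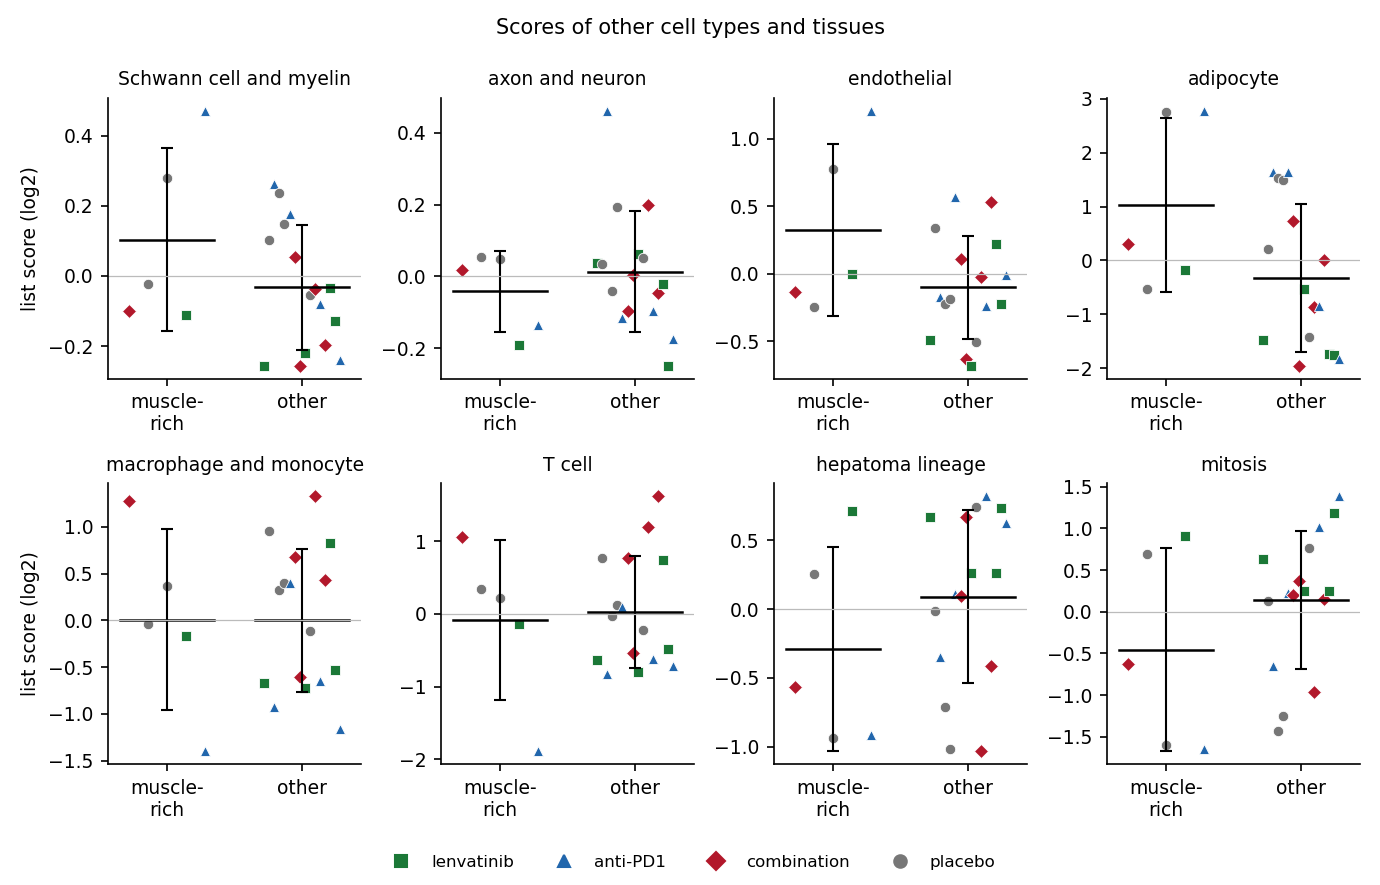
Scores of 8 gene lists (y axis, mean of gene-centred log2 signals) in the 5 muscle-rich and the 16 other tumours, with symbols for the treatment arm. The adipocyte scores of placebo 1 and anti-PD1 2, 2.76 and 2.78, lie above those of all other tumours, and the T cell score of anti-PD1 2, -1.89, lies below them all, while none of the 8 lists separates the 2 groups.

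Genes in no list were taken by rule, as the 15 with the largest differences among those that passed. Of these 15, Myh8 and Tpm1 are contractile genes. Apobec2, a muscle member of the cytidine deaminase family, stood at 8.72, 8.12, 6.43, 6.72 and 8.53 in the muscle-rich tumours, and at 2.55, 3.19 and 5.36 in the other tumours, a rise of 4.17 ± 0.41 (limma adjusted p = 9.83e-07). Hspb6, a small heat shock protein, stood at 7.09, 7.64, 7.59, 7.47 and 8.75 in the muscle-rich tumours, and at 4.65, 4.93 and 5.49 in the other tumours, a rise of 2.72 ± 0.19 (limma adjusted p = 1.52e-08). Both were separated without overlap. Smyd1, a methyltransferase needed for myofibril assembly, rose by 2.74 ± 0.27, Klhl31 by 3.74 ± 0.27 and Fhl1, a LIM protein, by 3.23 ± 0.42. Prkaa2, the AMP kinase subunit common in muscle, rose by 2.64 ± 0.40 (limma adjusted p = 0.000376) but did not pass with Myl1 above 9 (0.142) or as a continuous term (0.0886). Hjv, the iron regulator hemojuvelin of muscle and liver, rose by 2.61 ± 0.26. Ankrd23, Cmya5, Tmem182, Rpl3l and Pkia rose by 2.50 to 2.72. A probe set named Mir675 rose by 2.57 ± 0.44 (limma adjusted p = 0.00173), but did not pass without the 3 tumours with Afp below 6 (2.47, 0.0900). Mir675 lies within the H19 transcript, and the array does not show which of these RNAs was read.

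**Figure D5:**
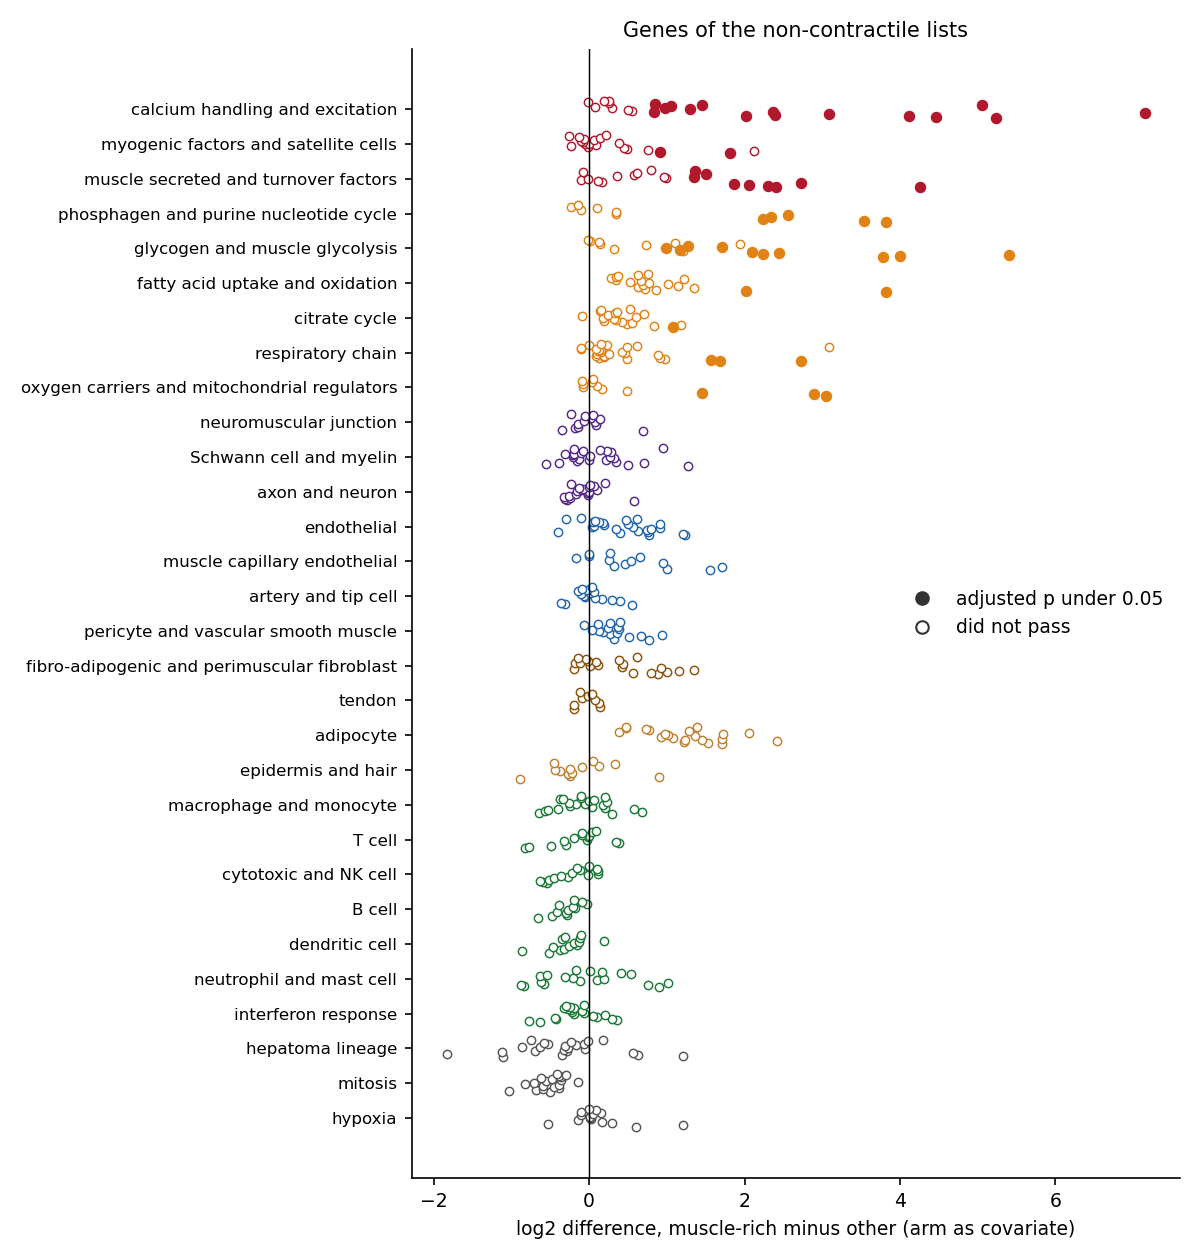
Log2 difference of muscle-rich minus other tumours (x axis) for every measured gene of the lists outside the contractile ones, 1 row per list, with genes past the adjusted p threshold of 0.05 marked. The marked genes lie in the muscle and metabolic rows, up to 7.15 for Atp2a1, and the nerve, vessel, stroma, adipocyte, epidermis, immune and tumour cell rows, drawn without the contractile gene Des, hold none.

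Differences within each arm are given for genes that the fit to the same tumours had picked. In the combination arm Pygm differed by 6.26, in the anti-PD1 arm by 4.76, in the lenvatinib arm by 5.31 and in the placebo arm by 5.33. For Atp2a1 these differences were 8.44, 7.04, 6.86 and 6.62, and for Ppp1r3a 5.34, 2.95, 3.50 and 3.52, in the same order of arms. Each arm except placebo held 1 muscle-rich tumour, so a difference between arms cannot be told apart from a difference between single tumours.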

How the data were processed

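Expression was measured on Clariom S mouse arrays in 21 tumours, 1 array per mouse. The deposited values are log2 signals. Per the submitters' processing notes, the authors used oligo and RMA. Tool versions and the genome build were not given in the sources used here. RMA corrects background, quantile-normalizes arrays and summarizes probes, so a shift common to most genes would not be seen. Precision is limited by the number of arrays. Arms came from the treatment labels, and mice are separate animals.

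Of 29129 rows, 6923 were controls and were not tested, which left 22206 probe sets, 19572 with 1 symbol from the platform annotation, updated through gene identifiers, 0 with several, and 2634 not listed in that table and so unnamed here. No filter was applied. The probe set with the highest mean stood for a gene. Of 622 list genes, 583 were measured and 39 were not matched. limma 3.58.1 (statmod 1.5.0, R 4.3.3) fitted muscle group and arm with lmFit and eBayes over all 21 tumours, two-sided, with Benjamini-Hochberg adjustment over all probe sets. Probe sets whose difference varied by arm were tested with an interaction term. A list score is the mean of gene-centred log2 signals. The fit was tested on simulated data. Contractile genes are described without a test, since the Myl1 rule chose them.

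The members, lists and pairs were chosen with earlier results of these data known. Named genes are list members, in each list up to 6 with the smallest p and others where a count is given, plus the 15 with the largest difference in no list. Alternatives were no arm term, other Myl1 thresholds, Myl1 as a continuous term, a filter at the 40th percentile, trend and robust eBayes, cyclic loess, median centring, array weights, hybridization control or adipocyte score as a covariate, other call thresholds, the mouse number as a block, and leaving out each tumour in turn. Leaving out the 6 arrays with bright hybridization controls, the 3 tumours with Afp below 6 or the 2 with Myl1 between 8.5 and 10 was added after the data were seen. Promoters are the 250 bases before the RefSeq start (GRCm38.p6).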

Additional observations from a re-analysis of the deposited data

Results flagged for a closer look

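In 273 named genes and 32 list scores, a tumour was marked where its gap to the nearest of the other muscle-rich tumours, divided by the range of all 5, exceeded Dixon's value of 0.71. That held for 20 genes and 1 score, and chance alone marks about 1 in 20 groups.

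Combination 2 was the high tumour in 10 of these marks. Among contractile genes it stood at 9.25 for Mybpc1, 7.49 for Nrap, 6.47 for Myoz2, 4.38 for Myh7, 8.18 for Tnnc1 and 7.80 for Tnnt1, and its slow contractile score was 2.62, beside at most 0.66 in the other 4 muscle-rich tumours. Outside them it stood at 7.70 for Phka1, a phosphorylase kinase subunit, 9.85 for Ankrd23, a stress protein of the sarcomere, and 4.39 for Ngp, a neutrophil granule gene near the negative control level.

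Anti-PD1 2 was the low tumour for 7 genes: 12.19 for Atp2a1, 5.28 for Ryr1, 4.27 for Myf6, 11.75 for Myh8, and, among immune genes, 4.15 for the dendritic cell integrin Itgax, 3.75 for S100a9 and 4.29 for Retnlg, both of neutrophils. It was the high tumour for Foxa1, a transcription factor of liver and other epithelia, at 7.68, beside at most 4.71 in the other 4. Ucp1 was marked for placebo 1, at 11.36 beside at most 3.60 in the other 4. Placebo 5 was marked for Sox2 at 3.87, near the negative control level, and for Cpa3, a mast cell protease, at 6.98, beside at least 7.63 in the other 4.

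The difference varied by arm for 5 probe sets past an adjusted p of 0.05 (limma interaction test), with 317 at an unadjusted p under 0.05. Of the 5, 3 were slow contractile genes, which are described without a test, and 2 were genes of myeloid cells. Mmp12, a macrophage elastase, had an adjusted p of 0.000492 (limma), with a difference of -5.32 in the anti-PD1 arm and 0.12 to 0.25 in the other arms. It stood at 6.86 in anti-PD1 2 and between 12.55 and 12.73 in the other 4 muscle-rich tumours, against 11.41, 12.48 and 12.89 in the other tumours (lowest, median and highest). Bcl2a1b, a survival gene of myeloid cells, had an adjusted p of 0.0267 (limma). It stood at 8.60 in anti-PD1 2 and between 11.45 and 12.25 in the other 4 muscle-rich tumours, against 11.31, 11.80 and 12.28 in the other tumours. Both results rest on anti-PD1 2, the only muscle-rich tumour of its arm, and arm and tumour cannot be told apart.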

How the results depend on the processing

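The number of probe sets that rose was 197, and 153 to 227 when each tumour was left out in turn, lowest without combination 2. It was 123 with the filter at the 40th percentile, which tests fewer probe sets, and 314 with array weights, where the cause was not tested. Other settings gave 154 (Myl1 above 9) to 244 (without the 6 bright arrays). The number that fell was 0, with 585 at an unadjusted p under 0.05 by limma. It was 0 to 1 when each tumour was left out, 19 with array weights, 4 with the hybridization control as a covariate, 4 without the 6 bright arrays, 2 with the adipocyte score as a covariate, 2 with the mouse number as a block and 1 at an adjusted p under 0.1.

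The 66 named genes past the threshold, contractile genes included, gave 2490 values under 38 alternatives, of which 2428 stayed past the threshold, 62 did not and 0 changed sign. The filter at the 40th percentile gave no value for 18 of the 66. Of the other 48, 35 passed in all 38 alternatives. These counts include Myl1 and contractile genes, which go with the rule itself. They therefore do not measure how stable the remaining genes are. Without the 3 tumours with Afp below 6, which include placebo 1 and anti-PD1 2, 8 of the 66 lost their call, as did 7 with Myl1 above 9, 6 with Myl1 above 11 and 7 with Myl1 as a continuous term. The mouse number as a replicate block gave 182 probe sets that rose and 2 that fell. It rests on a shared number only, since 15 of 30 pairs of tumours with the same number had residual correlations over 0.1, from -0.63 to 0.56.

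Changes of sign occurred in genes that had not passed. Without the 3 tumours with low Afp these were Cdh19 (-0.043), Cd3d (0.016), Cxcl9 (0.012), Afp (0.28), Kdr (-0.020), Ucp1 (-0.077) and Myod1 (0.12). Without the 6 bright arrays they were Myod1 (0.11), Myog (0.17) and Pfkp (-0.14), and with the hybridization control Myod1 (0.13), Myog (0.26) and Pfkp (-0.20). With the adipocyte score they were Ampd2 (0.070), Myod1 (0.055), Myog (0.050) and Adipoq (-0.37), a member of that score. Other Myl1 terms turned Myod1 (0.026 above 11), Myog (0.058 above 9 and 0.035 as a continuous term) and Pfkp (-0.029 above 9), and cyclic loess turned Myod1 (0.034) and Eef1a1 (0.024). When each tumour was left out, Myod1 ranged from -0.14 to 0.026, Myog from -0.13 to 0.16 and Ucp1 from -0.064 (without placebo 1) to 2.04. Why these values turned was not tested. Signals near the negative control median of 4.08, such as Musk and Myod1, limit what a difference can show, and with 5 muscle-rich tumours the precision rests on few animals.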
